A study of Mus musculus with 4 samples.

Results

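The expression of 10 genes of the pluripotency network, Pou5f1, Sox2, Klf4, Myc, Mycn, Nanog, Lin28a, Esrrb, Zfp42 and Sall4, was examined in neural progenitor cells (NPCs) on soft and stiff matrices. The genes were taken by their symbols from the 21862 genes that each library listed under a unique symbol, and all 10 were found. Sox2, Klf4 and Myc were clearly expressed, and all were higher in NPCs with a short hairpin RNA against Srf than in control NPCs. The difference was 4.44-fold on the soft matrix and 3.71-fold on the stiff matrix for Sox2. It was 1.69-fold and 1.95-fold for Myc, and 1.26-fold and 1.36-fold for Klf4. Among all genes with an FPKM above 2 in every library, 37.4% and 37.6% were higher by more than 1.1-fold. Mycn, Esrrb and Zfp42 were low, and were lower in the knockdown cells by 2.16-fold to 5.39-fold. Pou5f1 and Nanog were near an FPKM of 1 to 2, Lin28a was at or near 0, and Sall4 was listed at 0 everywhere.

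RNA was sequenced from mouse N31 NPCs, a line that was differentiated from induced pluripotent stem cells. Those stem cells had themselves been made from NPCs of embryonic stem cell origin, in which Pou5f1 (Oct4) carries an ires-BSDpA insertion, so all 4 libraries share it. All cells also carry genes for Oct4, Klf4, c-Myc and Sox2 under a Dox-dependent promoter on piggyBac vectors, with the Dox-responsive activator rtTA driven by the CAG promoter. Cells were cultured without EGF and bFGF on type I collagen-coated matrices of 0.5 kPa (soft) or 12 kPa (stiff), either as the control or expressing the hairpin shSrf#1 from a retroviral vector. The libraries were control at 0.5 kPa, control at 12 kPa, shSrf at 0.5 kPa and shSrf at 12 kPa, with 1 library for each. Differences between them therefore lack replicates, and they are given with no p-value. The sources name no Dox addition for these cultures and no control vector in the control cells. According to the methods, cells were selected with puromycin after viral infection, except where reprogramming efficiency was examined. The shSrf and control libraries may therefore also differ by infection and selection, which was not tested. The comparison of 12 with 0.5 kPa asks how stiffness bears on gene expression, and that of shSrf with control NPCs asks which part needs Srf, a transcription factor that responds to the actin cytoskeleton.

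Pou5f1 (Oct4), Sox2, Klf4 and Myc are the transcription factors that together return differentiated cells to a pluripotent state. In pluripotent cells Pou5f1 and Sox2 bind DNA side by side and maintain, with Nanog, Esrrb, Klf4 and Sall4, a network that keeps its own members active, while Zfp42 (Rex1) is a marker of that state and Lin28a blocks the maturation of let-7 microRNAs. NPCs normally keep Sox2 on and have silenced Pou5f1, Nanog and Zfp42.

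The values are FPKM, the reads of a gene divided by transcript length and by all mapped reads. They cannot separate reads of an endogenous gene from those of an introduced copy, which concerns Pou5f1, Sox2, Klf4 and Myc. Reads of Pou5f1 and Nanog may also be lost to or gained from their pseudogenes, so both are uncertain, and Sox2 lies inside the non-coding gene Sox2ot. Depth was estimated from low values that differ by whole reads at 29100000 and 24100000 reads for control NPCs at 0.5 and 12 kPa and at 45100000 and 62300000 for shSrf NPCs. The 95% intervals below come from these estimated reads and, like the floor of 3 reads, cover counting error only. In bulk RNA a smaller share of expressing cells and less RNA per cell cannot be told apart. The FPKM of Srf itself was 34.4 and 35.6 in the control libraries and 16.2 and 17.4 in the shSrf libraries, which gives a log2 ratio of shSrf to control of -1.09 on the soft and -1.03 on the stiff matrix.

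The label of the cells was set beside marker genes. Of 20 NPC markers, 10 had an FPKM above 2 in all libraries, led by Vim and Cdh2, whereas Sox1, Hes5, Olig2 and Nr2e1 were listed at 0 in all libraries and Sox3 stayed below 0.1. At 0.5 kPa, 4 of the 10 were higher in shSrf than in control NPCs by more than 1.1-fold and 4 lower. Among all genes above 2 in all libraries, 37.4% were higher and 35.7% lower. At 12 kPa, 5 of the 10 were higher and 4 lower, against 37.6% and 35.9% of all such genes. The summed FPKM of all 20 was 1912 and 1694 in control NPCs and 2547 and 2565 in shSrf NPCs. It followed Vim (1696, 1481, 2380 and 2396 in the order of the libraries above). In contrast, Nes (51.6, 36.1, 16.4 and 15.5) and Slc1a3 (27.7, 36.7, 9.99 and 13.2) were lower in shSrf NPCs. Pax6 (2.62, 3.46, 6.49 and 6.78) and Msi2 (11.0, 9.80, 20.6 and 20.6) were higher in shSrf NPCs. Of 15 mesenchymal markers, 13 were above 2 in all libraries, led by Col3a1 and Fn1. The summed FPKM of all 15 was between 3365 and 3587 in all libraries. Of the 13, 5 were higher and 4 lower in shSrf NPCs at 0.5 kPa (37.4% and 35.7% of all such genes). At 12 kPa 7 were higher and 4 lower (37.6% and 35.9%). Among them were Postn (188, 259, 30.2 and 36.8) and Dcn (9.22, 8.62, 26.9 and 26.2).

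Of 10 neuron markers, 5 were above 2, led by Stmn2 and Map2, and Rbfox3, Neurod1 and Elavl4 were at 0 and Dcx below 0.1. The summed FPKM of all 10 was 59.4 and 62.8 in control NPCs and 125 and 120 in shSrf NPCs. It followed Stmn2 (19.1, 18.7, 64.6 and 61.3) and Map2 (29.9, 35.1, 51.7 and 50.05). In contrast, Snap25 (4.46, 3.72, 3.11 and 2.45) was lower in shSrf NPCs. At 0.5 kPa 2 of the 5 were higher and 1 lower (37.4% and 35.7% of all genes above 2). At 12 kPa 3 were higher and 2 lower (37.6% and 35.9%). Of 7 astrocyte markers, 3 were above 2, led by Gja1 and Aldoc. The summed FPKM of all 7 was 428 and 366 in control NPCs and 227 and 237 in shSrf NPCs. It followed Gja1 (397, 334, 187 and 199). The other 2 of the 3 were higher in shSrf NPCs by more than 1.1-fold at both stiffnesses (37.4% and 37.6% of all genes above 2). Nes, Slc1a3, Pax6, Msi2, Postn, Dcn and Snap25 were chosen after their values were seen. With such shares among all genes the counts say little about the markers. Single markers differed between shSrf and control NPCs in both directions, as the member genes did, and their part in the members' differences was not tested.

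The promoters of the members were searched for short motifs. RefSeq on GRCm38.p6, which is mm10, gave 11 promoters for 8 of the 10 genes, with entries for Myc and Sall4 not used here. The 250 bases before each start were read on both strands for the octamer core ATGCAAA that Pou5f1 recognises, for the E-box CACGTG of Myc and Mycn and for the CArG box of Srf. No motif overlaps another in the stretches shown. The octamer core occurred in 4 of the 11 promoters, those of Sox2, Zfp42 and the overlapping pair of Nanog, and in 4.12% of all 32851 promoters. The E-box occurred in the promoter of Klf4 and in 6.02% of all promoters, and the CArG box in 0 of the 11 and in 1.47% of all. A match is a description of letters, and the absence of a match says only that these letters are not in this window. The stretches that hold a match are shown 5′ to 3′ on the strand of the gene, with the match in capitals (TTTGCAT is the octamer core on the other strand).
Sox2 (chr3:34649745-34649994, plus strand): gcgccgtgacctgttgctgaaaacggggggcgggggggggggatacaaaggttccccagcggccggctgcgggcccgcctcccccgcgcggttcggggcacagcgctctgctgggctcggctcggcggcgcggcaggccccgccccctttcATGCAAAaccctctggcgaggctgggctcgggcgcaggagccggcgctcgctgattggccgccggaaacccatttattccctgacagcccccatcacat
Nanog (chr6:122707374-122707460, plus strand): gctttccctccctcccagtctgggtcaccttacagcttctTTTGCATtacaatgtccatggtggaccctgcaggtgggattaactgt
Zfp42 (chr8:43307148-43307234, minus strand): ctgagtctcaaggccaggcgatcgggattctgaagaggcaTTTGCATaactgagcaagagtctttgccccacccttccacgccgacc
Klf4 (chr4:55532612-55532697, minus strand): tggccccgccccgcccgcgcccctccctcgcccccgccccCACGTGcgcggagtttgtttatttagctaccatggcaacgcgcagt
The match in Sox2 lies 99 to 93 bases before the start, that in Nanog 75 to 69, that in Zfp42 185 to 179 and that in Klf4 182 to 177. The genes with an octamer core did not move together with the knockdown at 0.5 kPa, where Sox2 was 4.44-fold higher, Zfp42 was 2.16-fold lower and Nanog was within 1.1-fold, as described next.

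Myc, a transcription factor of growth and proliferation genes on chromosome 15 of mm10 (61985341 to 61990361), was the member with the highest FPKM in every library. Its FPKM was 42.3 in control NPCs at 0.5 kPa, 33.7 in control NPCs at 12 kPa, 71.6 in shSrf NPCs at 0.5 kPa and 65.8 in shSrf NPCs at 12 kPa. Both shSrf libraries lay above both control libraries, and the lowest was the control on the stiff matrix. In rank, Myc stood at percentiles 85.9 and 82.6 of all genes in control NPCs and at 91.9 and 91.1 in shSrf NPCs.

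Klf4, a zinc finger factor of epithelial and pluripotent cells on chromosome 4 (55527137 to 55532475), followed with an FPKM of 25.9, 27.7, 32.8 and 37.8, in the order control at 0.5 and 12 kPa and shSrf at 0.5 and 12 kPa, which is kept below. The control libraries had overlapping intervals (24.5 to 27.4 and 26.1 to 29.4), while both shSrf libraries were above them and apart from each other (31.5 to 34.1 and 36.6 to 39.0).

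Sox2, which marks both pluripotent cells and neural progenitors and lies on chromosome 3 (34649995 to 34652461), had an FPKM of 4.29, 5.49, 19.1 and 20.4. The shSrf libraries were far above the control libraries, whose intervals were 3.79 to 4.84 and 4.87 to 6.17. Sox2 stood at percentiles 55.6 and 57.6 of all genes in control NPCs and at 73.8 and 74.8 in shSrf NPCs.

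Pou5f1, the POU-domain factor on chromosome 17 (35506032 to 35510777), had an FPKM of only 1.16, 0.861, 2.03 and 2.26. Both shSrf libraries were higher than both control libraries, but the control values rested on few reads, an estimated 16.1 to 38.7 at 0.5 kPa and 9.89 to 23.8 at 12 kPa. With 43.5 to 105 and 67.1 to 162 reads, the shSrf values were better covered.

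The 4 factors that the cells carry as Dox-dependent genes were therefore at different levels. On the scale of FPKM per coding length, where all reads are assigned to the coding sequence, Myc ranged over the libraries from 57.7 to 123, Klf4 from 55.3 to 80.6, Sox2 from 11.0 to 52.1 and Pou5f1 from 1.1 to 2.88. Pou5f1 was the lowest and Sox2 the third in all 4 libraries on this scale, and Klf4 was above Myc only in control NPCs at 12 kPa (59.1 against 57.7). The share of these reads that came from the introduced copies was not tested.

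Mycn, the paralog of Myc that is prominent in embryonic and neural progenitors, lies on chromosome 12 (12936093 to 12941836). Its FPKM was 2.23, 2.25, 0.655 and 0.788. The control libraries were indistinguishable (1.9 to 2.61 and 1.88 to 2.67), and both shSrf libraries were below them (0.512 to 0.826 and 0.652 to 0.944).

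Esrrb, an orphan nuclear receptor that sustains self-renewal of embryonic stem cells (chromosome 12, 86361117 to 86521628), had an FPKM of 0.902, 0.833, 0.322 and 0.154. The values rest on at least an estimated 75.9, 58.0, 41.9 and 27.8 reads. The control libraries overlapped within counting error (0.711 to 1.13 and 0.632 to 1.08), and the intervals of both shSrf libraries (0.232 to 0.435 and 0.103 to 0.223) lay below them and apart from each other.

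Zfp42 (Rex1), a zinc finger protein on chromosome 8 (43295067 to 43307009), had an FPKM of 0.823, 1.40, 0.381 and 0.572, on 38.4, 54.0, 27.5 and 57.0 estimated reads. It was lower in both shSrf libraries than in both control libraries, and within each population it was higher at 12 kPa. The intervals at 0.5 kPa (0.583 to 1.13 in control and 0.251 to 0.555 in shSrf NPCs) did not overlap.

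Nanog, the homeodomain factor of the pluripotent state (chromosome 6, 122707489 to 122714633), had an FPKM of 1.05, 1.32, 1.05 and 1.52. Its libraries did not separate by knockdown, and the intervals of control NPCs (0.781 to 1.39 and 0.983 to 1.73) overlapped those of shSrf NPCs (0.830 to 1.31 and 1.29 to 1.78).

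Lin28a, the RNA-binding protein that blocks let-7 (chromosome 4, 134003330 to 134019196), was listed at 0 in control NPCs at 0.5 kPa and in shSrf NPCs at 12 kPa, and at 0.0134 in shSrf NPCs at 0.5 kPa, which is an estimated 2.0 reads. The 0.150 in control NPCs at 12 kPa rests on 11.9 estimated reads, so only this library was above the floor of 3 reads, which corresponds to an FPKM of 0.0312, 0.0376, 0.0201 and 0.0146. Sall4, a zinc finger partner of Pou5f1 (chromosome 2, 168748332 to 168767201), was listed at 0 in all 4 libraries, as were 4353 genes. For Sall4 the floor of 3 reads corresponds to an FPKM of 0.0211, 0.0255, 0.0137 and 0.00988 over its longest transcript. Its transcripts are shorter on average (2503 against 5073 bases), which would give a higher floor.

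**Figure D1:**
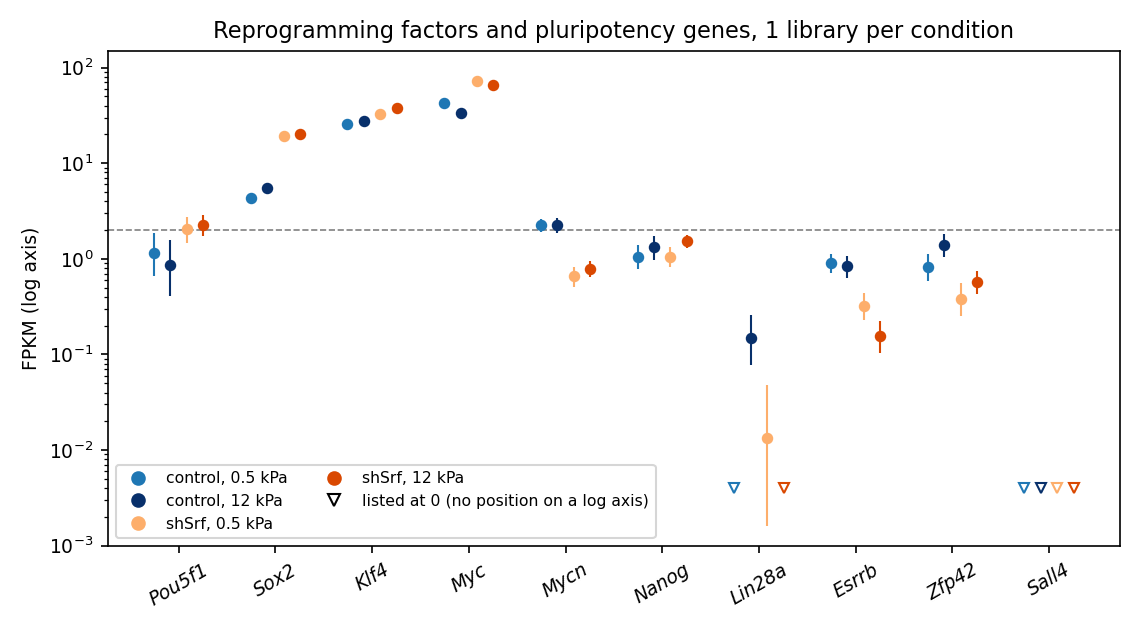
FPKM on a log axis of the 10 genes in the 4 libraries (1 point per library, bars are 95% intervals from counting error alone, open triangles mark values listed at 0, the dashed line is an FPKM of 2). Sox2, Klf4 and Myc lie above the line in all libraries, Sox2 at 4.29 and 5.49 in control against 19.1 and 20.4 in shSrf NPCs, while Mycn, Esrrb and Zfp42 are lower in both shSrf libraries.

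Srf knockdown was compared with control NPCs at each stiffness, in pairs of libraries that share none. An FPKM above 2 in all libraries was reached by 3 of the 10 members (Sox2, Klf4 and Myc) and by 10489 genes in all. All 3 were higher in shSrf NPCs by more than 1.1-fold at 0.5 kPa, where 37.4% of all included genes were, and at 12 kPa, where 37.6% were. Of these 3, 0 were lower by more than 1.1-fold at both stiffnesses, against 35.7% and 35.9% of all included genes. The minimum left out Mycn, which was above 2 in control NPCs (2.23 and 2.25) and below it in shSrf NPCs (0.655 and 0.788). A member that fell so far could not be counted as lower here. With such shares among all genes the 1.1-fold count says little about the members, and their sizes are given next.

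Of Sox2, Klf4 and Myc, only Sox2 was higher by more than 2-fold at 0.5 kPa (2.45% of included genes) and 12 kPa (2.74%). Its log2 ratio of shSrf to control was 2.15 at 0.5 kPa (counting interval 1.96 to 2.34) and 1.89 at 12 kPa (1.72 to 2.07), ranks 20 and 39 from the highest of 10489 genes. Both values lay far above the 95th percentile of genes, 0.77 at 0.5 kPa and 0.79 at 12 kPa (the 5th percentile was -0.79 and -0.74).

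Myc was 1.69-fold higher at 0.5 kPa (log2 ratio 0.76, interval 0.68 to 0.83) and 1.95-fold higher at 12 kPa (0.97, 0.88 to 1.05), ranks 558 and 310. Klf4 was 1.26-fold higher at 0.5 kPa (0.34, 0.24 to 0.44) and 1.36-fold higher at 12 kPa (0.45, 0.35 to 0.55), below the 95th percentile of all genes. Of Sox2, Klf4 and Myc, Klf4 moved most with a correction for base composition, which was not run for the low members. When ratios were centred within bins of transcript GC content, it was 0.18 and 0.28, whereas that of Sox2 was 2.04 and 1.81 and that of Myc 0.69 and 0.88.

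Pou5f1, Mycn, Nanog, Esrrb and Zfp42 were below the minimum in at least 1 library and were set against genes with a mean FPKM of 0.3 to 3 over the 4 libraries and detected in both libraries compared, bounds chosen after the values were seen. At 0.5 kPa, 3 of these 5 (Mycn, Esrrb and Zfp42) were lower by more than 2-fold, against 12.5% of 2591 such genes, and 0 were higher, against 19.5%. At 12 kPa the same 3 were lower, against 10.8% of 2596 genes, and 1 (Pou5f1) was higher, against 20.9%.

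The log2 ratio of Mycn was -1.77 at 0.5 kPa (interval -2.19 to -1.35) and -1.51 at 12 kPa (-1.88 to -1.14), which is 3.41-fold and 2.85-fold lower. Mycn and Myc, which bind the same E-box, thus differed in opposite directions at both stiffnesses. Esrrb was 2.80-fold lower at 0.5 kPa (-1.49, -2.06 to -0.92) and 5.39-fold lower at 12 kPa (-2.43, -3.13 to -1.75). Zfp42 was 2.16-fold lower at 0.5 kPa (-1.11, -1.89 to -0.37) and 2.45-fold lower at 12 kPa (-1.29, -1.85 to -0.73).

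The remaining pair of core factors had wide intervals. Pou5f1 had a log2 ratio of 0.81 at 0.5 kPa, with an interval that includes 0 (-0.02 to 1.75), and of 1.39 at 12 kPa (0.41 to 2.50). For Nanog the interval included 0 at both stiffnesses (-0.54 to 0.54 at 0.5 kPa, and -0.26 to 0.68 at 12 kPa around a ratio of 0.21), so at this depth a difference was not detectable. No ratio was formed for Lin28a and Sall4.

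**Figure D2:**
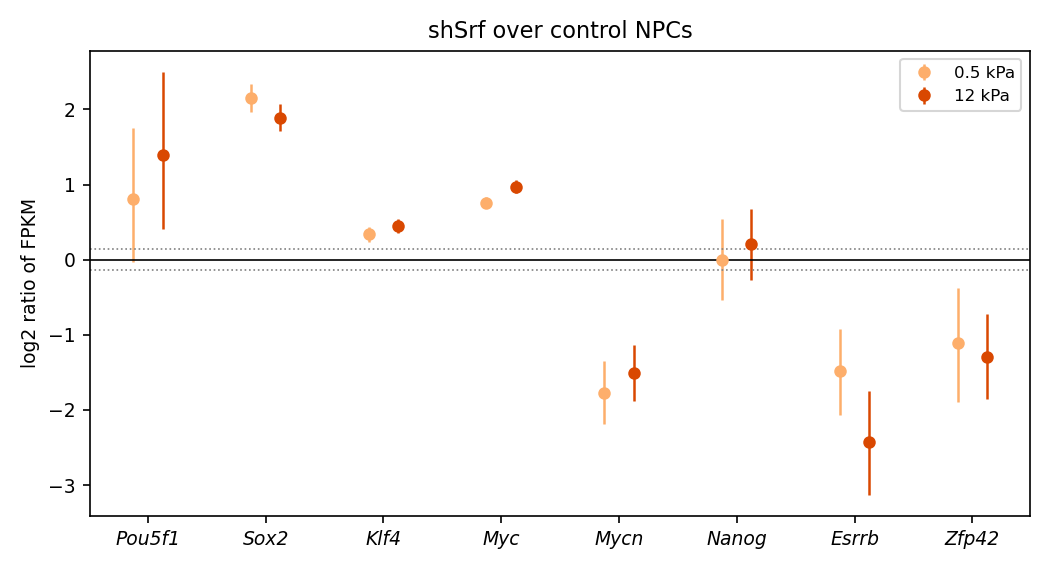
log2 ratio of FPKM of shSrf to control NPCs at 0.5 and 12 kPa for the 8 members detected in all libraries (1 library per condition, bars are 95% intervals from counting error alone, dotted lines are 1.1-fold). Sox2 is near 2 and Mycn, Esrrb and Zfp42 are below -1 at both stiffnesses, whereas the bars of Nanog span 0.

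Stiffness was compared within each population. These comparisons use the same 4 libraries as those of the knockdown and are not independent of them. In control NPCs, of the 3 members above the minimum, Sox2 was higher at 12 kPa by more than 1.1-fold (17.9% of all included genes were higher) and Myc was lower (16.9% were lower), while Klf4 stayed within 1.1-fold. In shSrf NPCs, Klf4 was higher (17.6% were higher) and 0 of the 3 were lower (13.0% were lower).

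The log2 ratio of Sox2 at 12 over 0.5 kPa was 0.36 in control NPCs (interval 0.11 to 0.60) and 0.10 in shSrf NPCs (0.01 to 0.18). Myc had -0.33 in control NPCs (-0.43 to -0.23), below the 5th percentile of all genes (-0.30), and -0.12 in shSrf NPCs (-0.18 to -0.07). Klf4 had 0.09 in control NPCs (-0.02 to 0.21) and 0.21 in shSrf NPCs (0.13 to 0.28). All 3 had the same sign in both populations, at sizes that differed by 0.26 for Sox2, -0.21 for Myc and -0.11 for Klf4 (control minus shSrf). Whether these sizes differ beyond the variation between libraries was not tested.

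Among the 5 low members, 3 were beyond 1.1-fold in either direction in control NPCs (75% of genes with a mean FPKM of 0.3 to 3 over the 4 libraries were) and 5 in shSrf NPCs (70.0% were). Shares this large leave little to read from these counts. Zfp42 had a log2 ratio of 0.76 in control NPCs (0.15 to 1.42) and 0.58 in shSrf NPCs (-0.07 to 1.33). Esrrb was 0.12 lower on the log2 scale in control NPCs, with an interval from -0.64 to 0.39, and had a ratio of -1.06 in shSrf NPCs (-1.80 to -0.33). The FPKM behind the ratio in shSrf NPCs was 0.322 and 0.154.

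Nanog had a log2 ratio of 0.32 in control NPCs (-0.26 to 0.92) and 0.53 in shSrf NPCs (0.13 to 0.95). For Mycn it was 0.01 and 0.27, the latter with an interval from -0.17 to 0.71. Pou5f1 had -0.43 in control NPCs (-1.71 to 0.82) and 0.16 in shSrf NPCs (-0.43 to 0.72), and both intervals include 0.

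**Figure D3:**
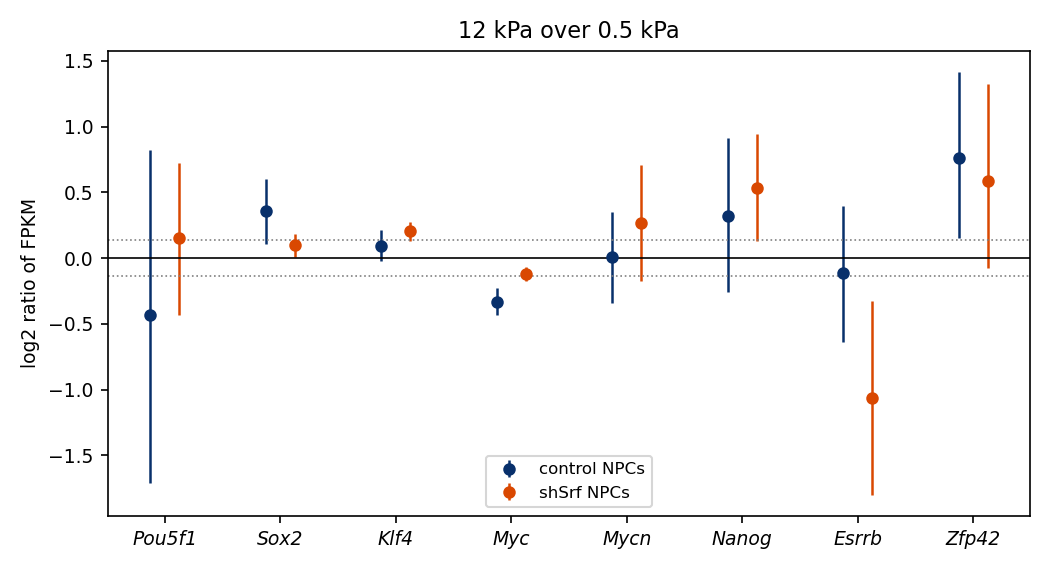
log2 ratio of FPKM at 12 over 0.5 kPa in control and in shSrf NPCs for the same 8 members (1 library per condition, bars are 95% intervals from counting error alone, dotted lines are 1.1-fold). Sox2 is at 0.36 and 0.10 and Myc at -0.33 and -0.12, the low members Zfp42 (0.76 in control NPCs) and Esrrb (-1.06 in shSrf NPCs) lie farthest from 0, and the bars of Pou5f1 span 0 in both populations.

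Genes of the wider network were taken from lists. Their counts beyond 1.1-fold stand beside the shares of all included genes, which for the knockdown were 37.4% higher and 35.7% lower at 0.5 kPa and 37.6% and 35.9% at 12 kPa, and for stiffness 17.9% and 16.9% in control and 17.6% and 13.0% in shSrf NPCs. Of 29 genes restricted to pluripotent cells or the early embryo, 4 had an FPKM above 2 in all libraries (Klf2, Klf5, Tbx3 and Lefty1), 13 stayed below 0.1 in all libraries and 4 of these were listed at 0 throughout. The median FPKM of the 29 was 0.0984, 0.0622, 0.0381 and 0.0411. The 4 expressed genes are also known outside pluripotent cells. All 4 were higher in shSrf NPCs by more than 1.1-fold at 12 kPa (37.6% of all genes) and 1 of 4 (Klf2) at 0.5 kPa (37.4%), with median log2 ratios of 0.54 and 0.07 beside medians of 0.00981 and 0.0106 over all genes. With stiffness, 1 of the 4 was lower in control NPCs and all 4 were higher in shSrf NPCs (medians -0.07 and 0.33, beside 0.00305 and 0.0064 over all genes). The gene lower in control NPCs was Lefty1, an inhibitor of Nodal, with an FPKM of 4.31, 2.69, 4.41 and 5.34 and log2 ratios of -0.68 and 0.28. Among genes below the minimum and chosen after their values were seen, Trim71, a target of let-7, had an FPKM of 3.05, 2.43, 0.423 and 0.617, lower in both shSrf libraries, and Fgf5, a growth factor of the primed state, had 0.269, 0.258, 1.24 and 1.31, higher in both.

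Regulators of pluripotency that many other cells also use were largely expressed, with 15 of the 16 listed genes found above the minimum. At 0.5 kPa 5 were higher in shSrf NPCs and 4 lower (37.4% and 35.7% of all genes), and at 12 kPa 6 were higher and 3 lower (37.6% and 35.9%), with median log2 ratios of 0.00032 and 0.03. With stiffness, 2 were higher and 0 lower in control NPCs and 5 higher and 0 lower in shSrf NPCs (medians -0.04 and 0.02). Of the 29 paralogs of the members, 14 were above the minimum. In shSrf NPCs 6 were higher and 5 lower at 0.5 kPa (37.4% and 35.7% of all genes) and 7 higher and 3 lower at 12 kPa (37.6% and 35.9%, medians 0.02 and 0.11), and with stiffness 2 were higher and 4 lower in control NPCs and 3 higher and 3 lower in shSrf NPCs (medians -0.06 and 0.0076). Sall1, a paralog of Sall4 named after its values were seen, had an FPKM of 2.35, 2.19, 0.762 and 1.07.

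All 12 listed partners and regulators of Myc protein were above the minimum. In shSrf NPCs 8 were higher and 3 lower at 0.5 kPa (37.4% and 35.7% of all genes) and 6 were higher and 2 lower at 12 kPa (37.6% and 35.9%), with median log2 ratios of 0.34 and 0.20. With stiffness, 6 were higher and 1 lower in control NPCs and 2 higher and 2 lower in shSrf NPCs (medians 0.13 and 0.05). Mxi1, which competes with Myc for its partner Max, had an FPKM of 4.14, 4.06, 10.1 and 8.63 and log2 ratios of shSrf to control of 1.28 and 1.09. Mxd4, of the same antagonist family, had 20.3, 23.5, 35.6 and 38.3 and log2 ratios of 0.81 and 0.70. Both antagonists were thus higher in the libraries in which Myc was higher, and Max itself had 65.9, 84.3, 53.6 and 61.8, lower than its control at both stiffnesses (chosen after its values were seen).

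Of 38 targets of Myc, all above the minimum, 9 were higher and 16 lower in shSrf NPCs at 0.5 kPa (37.4% and 35.7% of all genes) and 8 were higher and 22 lower at 12 kPa (37.6% and 35.9%), with median log2 ratios of -0.08 and -0.18. With stiffness, 3 were higher and 10 lower in control NPCs and 0 higher and 7 lower in shSrf NPCs (medians -0.06 and -0.08). In the knockdown the median of these targets was thus below 0 where Myc was above 0. Targets beyond 1.5-fold at both stiffnesses went in different directions. Dkc1, the pseudouridine synthase of small nucleolar and telomerase RNA, had an FPKM of 43.8, 36.9, 77.9 and 71.4 (log2 ratios 0.83 and 0.95). The nucleolar GTPase Gnl3 had 96.0, 91.6, 60.6 and 56.1 (-0.66 and -0.71), and the lactate transporter Slc16a1 had 64.2, 57.2, 29.6 and 26.0 (-1.12 and -1.14).

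Around Lin28a, 11 of 12 genes of the let-7 axis were above the minimum, and the exception was the paralog Lin28b, at 0.113, 0.110, 0.186 and 0.237. In shSrf NPCs 5 were higher and 4 lower at 0.5 kPa (37.4% and 35.7% of all genes) and 2 higher and 4 lower at 12 kPa (37.6% and 35.9%), with median log2 ratios of -0.0042 and -0.03. With stiffness 2 were higher and 3 lower in control NPCs and 0 higher and 2 lower in shSrf NPCs (medians 0.01 and -0.03). Hmga1, a chromatin protein of proliferating cells, had an FPKM of 142.9, 88.6, 100.1 and 87.3, and its log2 ratio with stiffness in control NPCs was -0.69.

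**Figure D4:**
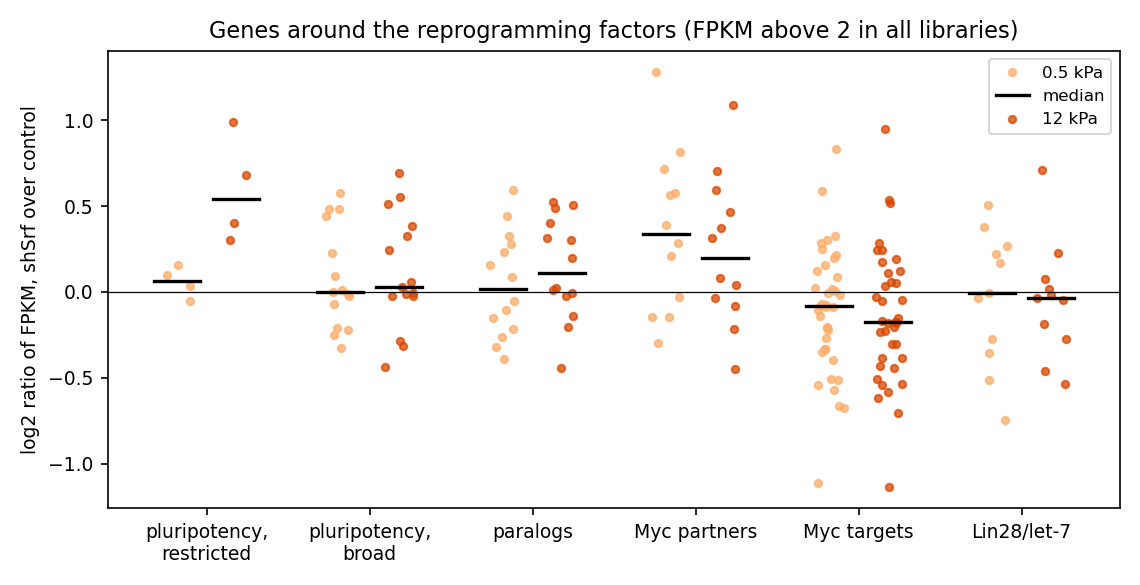
log2 ratio of FPKM of shSrf to control NPCs at 0.5 and 12 kPa for listed genes above an FPKM of 2 in every library (points are genes, black lines are medians). The median is 0.34 and 0.20 for the 12 Myc partners, -0.08 and -0.18 for the 38 Myc targets and 0.07 and 0.54 for the 4 restricted pluripotency genes.

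The genes with the most similar pattern over the 4 libraries were found by the largest difference in the log2 ratios to control NPCs at 0.5 kPa. Over 4 libraries such a likeness is a description only. For Sox2 the nearest were Gdpd2 (largest difference 0.069), Ifit3 (0.075) and Armcx6 (0.16), and 2 genes were within 0.1. For Myc they were Sncg (0.040), Nr2f1 (0.046) and Dusp9 (0.055), with 9 genes within 0.1, and for Klf4 they were Fam214b (0.017), 3110062M04Rik (0.023) and Ephb4 (0.030), with 137 genes within 0.1. Few genes had knockdown ratios as high as those of Sox2 (ranks 20 and 39 of 10489), so its small count largely restates those ranks.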

How the data were processed

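Total RNA of 4 cultures was made into stranded mRNA libraries and sequenced single-end. The authors trimmed reads with cutadapt 1.9.1, mapped them to mm10 with TopHat2 2.1.0 and Bowtie2 2.2.8 (GENCODE M14), kept reads of mapping quality 20 or more and calculated FPKM with Cufflinks 2.2.1. The deposited FPKM (called RPKM in the methods) were used without rescaling. Of 21997 rows, symbols listed more than once (63) were left out. As in the methods, genes above an FPKM of 2 in all libraries were included and ratios beyond 1.1-fold counted, as log2 without pseudocount. The members and lists were chosen with earlier results of these data known. Genes named are the members, Srf, list genes that the knockdown moved one way beyond 1.5-fold on each matrix or that differed by as much with stiffness, the 3 genes most alike to each included member, and markers below 0.1 or the 2 highest, and any other is named as chosen after its values were seen. A marker below 0.1 that this rule names is not reported here.

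Depth was estimated from 386 of 405 genes with an FPKM under 0.1 whose values step by whole reads. Reads of a gene used GENCODE M1 transcript lengths less 200 bases (mean or longest transcript give the range, the lower was used for intervals), matched by symbol. Intervals for FPKM are exact Poisson and for ratios exact binomial, at 95%. Depth and 2-fold changes of 200 well expressed genes were recovered from simulated reads. The simulation used the same transcript lengths, so it did not test them, and its changed genes were not low ones. Alternatives were a minimum FPKM of 1, 5 or none, a pseudocount of 1, centring on the median or within 50 GC bins, thresholds of 1.2, 1.5 and 2-fold, and scaling of libraries to their 75th percentile. Coordinates and promoters are from RefSeq GRCm38.p6. The scripts ran in Python 3.11.15 (pandas 2.3.3, numpy 2.4.6, matplotlib 3.10.9, scipy 1.17.1).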

Additional observations from a re-analysis of the deposited data

Results flagged for a closer look

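The 10 members were searched at any FPKM. List genes outside the marker lists were searched if above an FPKM of 2 in all libraries and beyond 1.5-fold in a stiffness ratio. Of these, 2 genes had log2 ratios of 12 to 0.5 kPa beyond 1.1-fold in opposite directions in control and shSrf NPCs. With 1 library for each condition, neither difference was tested. Pou5f1 was lower at 12 kPa in control NPCs (-0.43) and higher in shSrf NPCs (0.16), a difference of -0.58, and the counting intervals of both ratios include 0. Lefty1 was lower at 12 kPa in control NPCs (-0.68) and higher in shSrf NPCs (0.28), a difference of -0.96. The list genes Mlx, Ccnd2, Tfrc and Shmt1 and the markers Tubb3 and Cspg4 also went in opposite directions, with ratios within 1.5-fold. List genes below the minimum were left out. Some of them also went in opposite directions, such as Dppa2 (-1.31 and 1.27) and Nr5a2 (0.78 and -0.46), both chosen after their values were seen.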

How the results depend on the processing

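Counts of members beyond 1.1-fold followed the minimum and the threshold. For 12 over 0.5 kPa in control NPCs the count was 2 of 3 members, 1 with a minimum FPKM of 5, 5 of 8 with no minimum, and 0 with thresholds of 1.5-fold and 2-fold. In shSrf NPCs it was 1, and 2 with a minimum of 1, 6 with no minimum, 0 with thresholds of 1.2, 1.5 and 2-fold, and 2 with ratios centred within GC bins, where Myc was also beyond 1.1-fold. For shSrf over control NPCs the count was 3 at both stiffnesses, 7 at 0.5 kPa and 8 at 12 kPa with no minimum, and 1 (Sox2) with a threshold of 2-fold. No member ratio beyond 1.1-fold changed direction under the alternatives run, and the ratio of Nanog for the knockdown at 0.5 kPa, near 0, was -0.010 after centring on the median. A pseudocount of 1 took 7 of 32 single ratios outside their own counting intervals. Among them were Mycn (-0.97 and -0.86 for the knockdown at 0.5 and 12 kPa) and Esrrb (-0.52 and -0.67). Low members with wide intervals could shift far and stay inside, as Zfp42 did for the knockdown at 0.5 kPa, from -1.11 to -0.40. Centring within GC bins, run for Sox2, Klf4 and Myc only, took 3 of 12 outside. They were the knockdown ratios of Klf4 and that of Myc at 12 kPa. The depth limits Pou5f1, Lin28a and Sall4 most, and without replicates the variation between cultures is unknown.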
